A study of Mus musculus with 15 samples.

Results

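Interferon-stimulated genes are switched on when a cell detects interferon or foreign nucleic acid, and their transcripts were measured here in hearts of mice given methamphetamine (meth) or phosphate-buffered saline (PBS). The set held 37 genes chosen by symbol, and a probe counted as a member's when the RefSeq accession printed on the array mapped to that symbol. Of the 37 genes, 35 had a probe, and all 35 passed the filter on dim probes. They were read by 50 of 41174 probes, 48 of which were tested, among 14226 named genes tested in all. Mx1 and Mx2 had no probe matched by accession and were not analysed here. Oas3 was above background on 4 of 15 arrays, all female, and the other 34 members on all 15. Oas3 is kept in the counts over 35 members, but its male values, and every difference that uses them, rest on signal not well above background.

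The animals were C57BL/6 mice, 8 to 10 weeks old when dosing began. Meth mice received (+) methamphetamine hydrochloride in PBS by weekly intraperitoneal injection, with the dose raised step by step over 20 weeks to 40 mg/kg, and control mice were injected with PBS alone at the same times. The hearts, collected at 5 months, were excised, frozen and homogenised, so each array read RNA of all cell types in the heart, and fewer cells of a type and less RNA per cell cannot be told apart. There were 4 male meth, 4 male PBS, 4 female meth and 3 female PBS hearts, each from a mouse of its own. The paper reports early deaths among meth males alone, so the male meth hearts came from survivors of that group. The males came from 2 trials with 2 hearts per group in each, and the titles place all 7 female hearts in trial 1, whereas another label places 3 of them in trial 2. The arrays lay on 4 slides scanned in 3 sessions. Slides 1 and 2 held both sexes, slide 3 only the trial 2 males and slide 4 only females. Slides 3 and 4 were each scanned in a session of their own. In comparisons of the sexes, sex is therefore partly confounded with slide, scan session and, by title, trial. Levels are given as normalized log2 signal, in which 0 is the 75th percentile of all probes on that array.

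The 7 cardiomyocyte markers (Myh6, Tnnt2, Tnni3, Actc1, Pln, Ryr2 and Myl2) were above background on every array. Xist was above background on all 7 female arrays and on no male array, and Ddx3y on all 8 male arrays and on no female array. Transcripts of airway epithelium were also present. Their summed signal (log2) ran from 4.45 to 6.92 on male meth arrays, from -0.02 to 0.43 on male PBS arrays, from 0.71 to 1.82 on female meth arrays and from 1.23 to 1.92 on female PBS arrays. The part of that difference in the results below was not tested.

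In this pathway, type I interferons bind the receptor pair Ifnar1 and Ifnar2, the kinases Jak1 and Tyk2 become active, and a complex that contains Stat2 and Irf9 binds the interferon-stimulated response element (ISRE) in target promoters. Interferon gamma acts on its targets through the gamma-activated site (GAS). The products detect viral RNA and DNA, block translation of viral messages, degrade RNA, attack vacuoles and widen antigen presentation. Without infection, low and constant interferon signalling keeps many of them at a basal level in most tissues.

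Promoters bear on this set because its members are defined by a shared input. RefSeq start sites (build GRCm38.p6) gave windows of 250 bases before to 50 bases after the start for 29 of the 37 genes. The ISRE core (GAAA, any 2 bases, GAAA), searched on both strands, lay in a window of 15 of these 29 genes (51.7%), against 3.99% of 27025 genes with a listed window. The GAS core TTCNNNGAA, which reads the same on both strands, lay in a window of 10 of 29 (34.5%), against 9.55% of all genes. Both cores are short, and a match is a description of the letters only. Windows from 200 bases before to 20 bases after the start are shown for Ifit1, Ifit3 and Gbp2, whose male meth and PBS arrays did not overlap, and for Isg15 and Bst2, which were lower on every male than on every female array within each treatment. They run 5′ to 3′ on the strand of the gene, with ISRE cores in capitals, which appear as TTTC, any 2 bases, TTTC where the core lies on the other strand.
Ifit1 (chr19:34640689-34640908, plus strand): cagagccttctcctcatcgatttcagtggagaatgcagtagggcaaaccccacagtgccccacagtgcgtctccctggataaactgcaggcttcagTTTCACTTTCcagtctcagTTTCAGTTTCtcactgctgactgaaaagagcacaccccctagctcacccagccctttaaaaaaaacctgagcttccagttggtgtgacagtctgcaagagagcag
Ifit3 (chr19:34583329-34583548, plus strand): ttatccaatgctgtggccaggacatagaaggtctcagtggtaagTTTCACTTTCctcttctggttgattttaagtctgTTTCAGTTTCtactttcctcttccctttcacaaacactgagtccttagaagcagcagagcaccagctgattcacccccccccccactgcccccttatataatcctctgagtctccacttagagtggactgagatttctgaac
Gbp2 (chr3:142620463-142620682, plus strand): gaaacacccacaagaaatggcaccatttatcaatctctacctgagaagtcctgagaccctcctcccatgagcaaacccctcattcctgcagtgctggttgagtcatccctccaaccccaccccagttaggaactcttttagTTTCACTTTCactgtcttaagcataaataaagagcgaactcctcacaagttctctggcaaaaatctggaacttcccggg
Isg15 (chr4:156200799-156201018, minus strand): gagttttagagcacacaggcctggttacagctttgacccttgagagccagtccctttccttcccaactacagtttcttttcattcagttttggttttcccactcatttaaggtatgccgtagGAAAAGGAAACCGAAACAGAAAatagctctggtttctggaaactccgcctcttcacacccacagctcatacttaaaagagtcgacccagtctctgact
Bst2 (chr8:71537453-71537672, minus strand): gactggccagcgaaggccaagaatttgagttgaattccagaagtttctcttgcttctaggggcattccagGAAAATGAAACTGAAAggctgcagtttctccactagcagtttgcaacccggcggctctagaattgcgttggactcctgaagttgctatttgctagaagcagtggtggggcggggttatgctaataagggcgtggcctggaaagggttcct
The windows of Ifit1 and Ifit3 each held 2 separate cores, Gbp2 held 1, and the cores of Isg15 (3) and Bst2 (2) overlapped in 1 run. In Ifit1 the cores began at -104 and -85, counted from the start site at 0. The windows listed for Ifit2, Oasl2, Ifi44, Xaf1, Irf7, Irf9 and Tap1 did not hold these ISRE letters.

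Across the 15 arrays the members differed most between PBS hearts of the 2 sexes. Relative to each gene's own mean, the median member stood at -0.34, -0.25, -0.20 and -0.12 (log2) on the 4 male PBS arrays and at 0.08, 0.26 and 0.32 on the 3 female PBS arrays. Male meth arrays ran from -0.12 to -0.01, below all 3 female PBS arrays, with trial 1 replicate 2 inside the male PBS range and the other 3 above it. Female meth arrays fell into a high pair at 0.28 (replicate 1) and 0.31 (replicate 4) and a low pair at -0.06 (replicates 2 and 3). On the male PBS arrays 1 to 8 of 35 members exceeded their own mean, on the male meth arrays 12 to 17, on the female PBS arrays 27 to 33 and on the female meth arrays 13 to 34. Most members varied together over the 15 arrays. The correlation of a member with the median of the others was -0.13 for Rsad2 and -0.18 for Eif2ak2. For the rest it ran from 0.32 (Iigp1) to 0.96 (Ifih1). Counts of members below are therefore not counts of independent results.

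**Figure D1:**
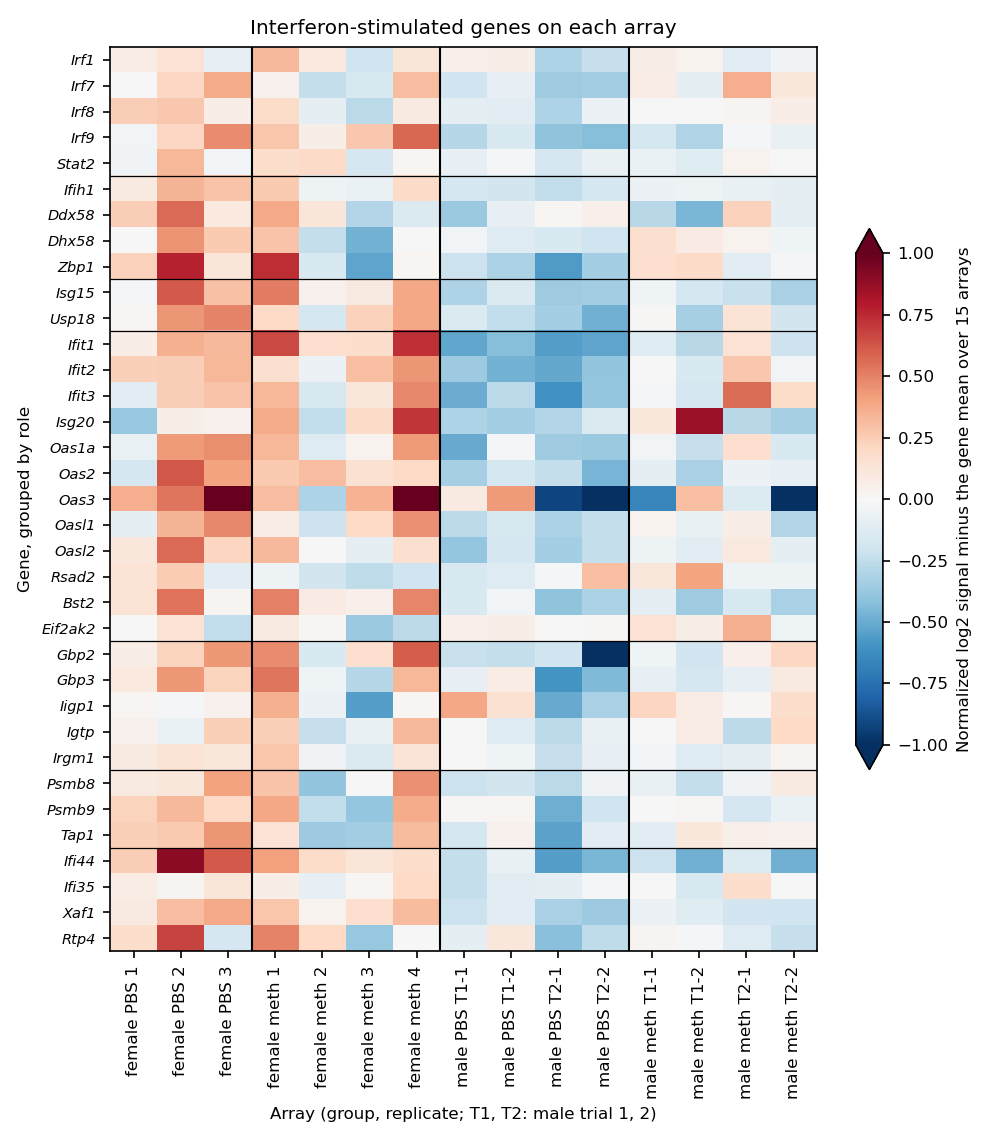
Normalized log2 signal of 35 interferon-stimulated genes (rows, grouped by role) on 15 arrays (columns, by group), each gene shown relative to its mean over all arrays; red is above and blue below that mean, and the scale stops at ±1. The male PBS columns are mostly blue and the female PBS columns mostly red, with 1 to 8 and 27 to 33 of 35 genes above their own mean.

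Male meth and PBS hearts were compared first. No member passed the test (limma, Benjamini-Hochberg adjusted p under 0.05 over 28367 probes), where 1.34% of all genes tested did. The fitted log2 fold change was above 0 for 32 of 35 members, against 44.9% of all genes, with a median of 0.17 against -0.02. On 8 of 35 members every male meth array was above every male PBS array, against 5.82% of all genes, and on none was it below (5.76%). At an unadjusted p under 0.05, 4 members were higher (Ifit1, Ifit2, Ifit3 and Irf7) and none lower, where 7.33% and 5.83% of all genes were.

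Of the 5 members with the largest male differences, 3 were antiviral effectors (Ifit3, Ifit2 and Ifit1), and the others were the GTPase Gbp2 and the sensor Zbp1. Ifit1 encodes a protein that binds viral RNA ends and blocks translation. For Ifit2 the normalized log2 signal was -1.42, -1.53, -1.57 and -1.46 on the male PBS arrays and -1.07, -1.21, -0.79 and -1.09 on the male meth arrays. All 4 meth values were above the highest PBS value, and the fold change was 0.46 ± 0.11 (log2, SE), or 1.37-fold, with an adjusted p of 0.0791 and an exact two-sided permutation p of 0.0286, the smallest that 4 against 4 allows. Its other probe gave 0.45 (adjusted p = 0.137). The fit with slide as a block put Ifit2 past the threshold at the same 0.46 (adjusted p = 0.0331), as did leaving out female meth replicate 2 (adjusted p = 0.0440), which enters only through the shared estimate of spread.

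Ifit3 read 0.27, 0.50, 0.17 and 0.38 on the male PBS arrays and 0.75, 0.61, 1.33 and 0.95 on the male meth arrays. The groups did not overlap, trial 2 replicate 1 was the highest meth array, and the fold change was 0.58 ± 0.17 (1.49-fold, adjusted p = 0.150). Ifit1 read -1.88, -1.78, -1.91 and -1.88 on the male PBS arrays and -1.48, -1.63, -1.21 and -1.56 on the male meth arrays. Again no PBS array reached a meth array, with a fold change of 0.39 ± 0.14 (adjusted p = 0.261). Oasl2, an oligoadenylate synthetase-like protein, read 0.36, 0.58, 0.41 and 0.51 on the male PBS arrays and 0.70, 0.64, 0.84 and 0.65 on the male meth arrays. The groups came within a narrow gap of each other, at 0.58 and 0.64, and the fold change was 0.24 ± 0.12 (adjusted p = 0.407). Isg20, an RNA exonuclease, read -0.10, -0.14, -0.09 and 0.06 on the male PBS arrays and 0.31, 1.06, -0.07 and -0.13 on the male meth arrays. Its meth values were high on both trial 1 arrays and within the PBS range on both trial 2 arrays, so the mean difference of 0.36 ± 0.23 rested on trial 1. Of the remaining effectors, Oas1a (0.25), Oas2 (0.17), Oasl1 (0.18), Rsad2 (0.10) and Eif2ak2 (0.10) had fitted differences above 0 with overlapping arrays, and Bst2 was at -0.01. Oas3, whose male signal was not well above background, was at -0.16.

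Among the transcription factors all 5 members had a fitted difference above 0. Irf7, which amplifies interferon transcription, reached 0.36 ± 0.14 (adjusted p = 0.280), and Irf8, a factor of myeloid cells, 0.17 ± 0.10. Irf8 read 0.60, 0.59, 0.39 and 0.64 on the male PBS arrays and 0.70, 0.70, 0.73 and 0.77 on the male meth arrays. These groups did not overlap, with 0.64 as the highest PBS value and 0.70 as the lowest meth value. Irf9 (0.17), Irf1 (0.10) and Stat2 (0.05) overlapped. Among the cytosolic sensors, Zbp1, which binds Z-form nucleic acid, read -1.95, -2.05, -2.30 and -2.08 on the male PBS arrays and -1.57, -1.54, -1.84 and -1.75 on the male meth arrays. Its groups were apart at every array, with a fold change of 0.42 ± 0.22 (adjusted p = 0.461). Ifih1, the long double-stranded RNA sensor, read -0.46, -0.47, -0.54 and -0.47 on the male PBS arrays and -0.35, -0.35, -0.37 and -0.38 on the male meth arrays. The spread within each group was small and the difference was 0.12 ± 0.08 (adjusted p = 0.584). Dhx58 was at 0.18 and Ddx58, which encodes RIG-I, at -0.05 by its brightest probe and at 0.12, 0.10 and 0.17 by its 3 dimmer ones, so its probes disagreed in sign.

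The GTPases that attack vacuoles all had fitted differences above 0. Gbp2 read 1.31, 1.29, 1.33 and 0.35 on the male PBS arrays and 1.49, 1.34, 1.58 and 1.74 on the male meth arrays. Trial 2 replicate 2 of the PBS group was far below the other 3, and the fold change of 0.46 ± 0.22 (adjusted p = 0.412) fell to 0.20 without that array, still with no overlap. Gbp3 (0.20), Iigp1 (0.19), Igtp (0.12) and Irgm1 (0.03) overlapped, as did the ubiquitin-like modifier Isg15 (0.10) and its protease Usp18 (0.21). The immunoproteasome subunits Psmb8 and Psmb9 stood at 0.11 each and the peptide transporter subunit Tap1 at 0.22. Ifi35 (0.12), Xaf1 (0.11), Rtp4 (0.07) and Ifi44 (0.00) completed the set.

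**Figure D2:**
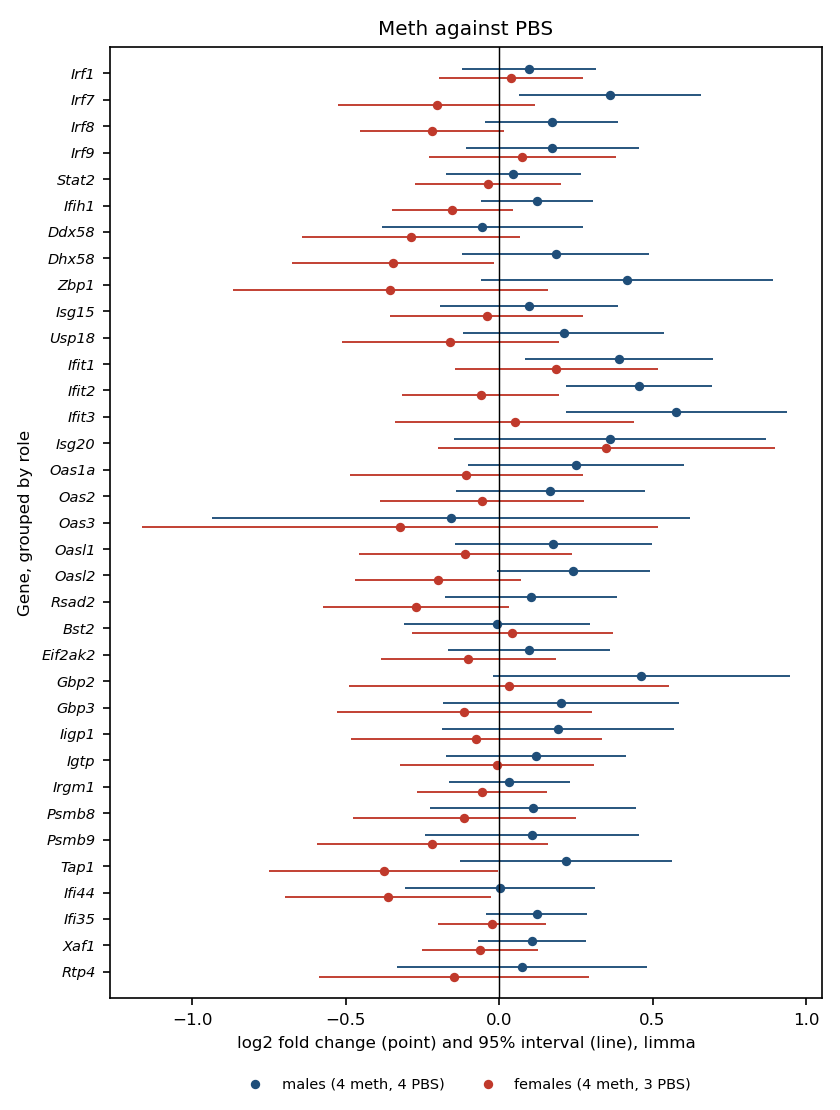
Log2 fold change of meth over PBS hearts for 35 interferon-stimulated genes, in males (blue, 4 against 4) and females (red, 4 against 3); points are limma estimates and lines their 95% intervals. Nearly all male points (32 of 35) lie above 0 and most female points (28 of 35) below, and most lines of either sex cross 0.

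Within trials the male difference was uneven. In trial 1 the median member stood at 0.07 with 23 of 35 above 0, and in trial 2 at 0.20 with 33 of 35 above 0, and no member was called in either trial, where 0.33% and 0.45% of all genes were. Members below 0 in trial 1 included Gbp3 (-0.12), Iigp1 (-0.12), Irgm1 (-0.06) and Irf9 (-0.02). Ifit3 was at 0.29 in trial 1 and 0.87 in trial 2, and Ifit2 at 0.33 and 0.58. The difference between the trials was tested with limma for every gene, and none passed. At an unadjusted p under 0.05 there was 1 member (Rsad2) and 4.23% of all genes, against 2 members (Isg20 and Rsad2) in trial 1 alone (6.71% of all genes) and 7 in trial 2 alone (11.4%). Same-numbered meth and PBS arrays shared a slide. All male arrays of trial 2 lay on slide 3, so there the number alone set the pairs. Within the same-numbered pairs of trial 1 the median difference of meth over PBS was 0.14 and -0.02. In those of trial 2 it was 0.32 and 0.14. Of the 35 members, 10 were higher in all 4 pairs, against 14.1% of all genes. Beside this, 8 of 9 leukocyte markers tested had a fitted difference above 0 in males (median 0.13, none called), and their summed log2 signal ran from 6.16 to 6.34 on meth arrays and from 6.06 to 6.11 on PBS arrays. Of the T and NK cell markers 7 of 9 were above 0 (median 0.20), of the B cell markers 4 of 5 (median 0.22) and of the neutrophil markers 0 of 4 (median -0.88), with none called. The airway markers moved further, with 5 of 6 called higher (Scgb1a1, Bpifa1, Foxj1, Krt18 and Cdh1). The part of any of these in the member differences was not tested.

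In females no member passed the test, where 0.443% of all genes did, and 3 were lower at an unadjusted p under 0.05 (Ifi44, Dhx58 and Tap1, where 3.39% of all genes were) and none higher (4.44%). The fitted difference was below 0 for 28 of 35 members, against 41.5% of all genes, with a median of -0.11 against 0.03. No member's meth and PBS arrays were apart in either direction, where 4.21% of all genes were apart and higher and 2.8% apart and lower. Scaling each array to its median in place of its 75th percentile raised the female difference of every gene by 0.08. Then 16 members were above 0, with a median of -0.03 over the members and 0.10 over all genes. Leaving out single arrays moved the median from -0.19 (without PBS replicate 1) and -0.17 (without meth replicate 1) to -0.05 (without meth replicate 2 or 3) and -0.06 (without PBS replicate 2 or 3).

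Tap1 had the largest fitted difference in females, at -0.38 ± 0.17 (adjusted p = 0.447). Its signal was -1.52, -1.49 and -1.31 on the female PBS arrays and -1.61, -2.11, -2.10 and -1.44 on the female meth arrays. Meth replicates 2 and 3 were below all PBS arrays and replicates 1 and 4 within or near their range. Ifi44, an interferon-induced protein, read -1.04, -0.39 and -0.67 on the female PBS arrays and -0.88, -1.10, -1.16 and -1.11 on the female meth arrays. Meth replicate 1 lay above the lowest PBS array and the other 3 below it, for a difference of -0.36 ± 0.15 (adjusted p = 0.401). Dhx58, a regulator of the RNA sensors, read -2.48, -2.03 and -2.22 on the female PBS arrays and -2.20, -2.72, -2.96 and -2.49 on the female meth arrays. Meth replicate 1 lay within the PBS range and the other 3 at or below its lower end, and the difference was -0.35 ± 0.15. Zbp1 read -1.50, -0.96 and -1.61 on the female PBS arrays and -0.997, -1.89, -2.26 and -1.72 on the female meth arrays. Meth replicate 1 lay within the PBS range and the other 3 below it, and the difference of -0.36 ± 0.24 ran from -0.59 without meth replicate 1 to -0.16 without PBS replicate 2. Isg20 was the largest difference above 0, at 0.35 ± 0.25 (adjusted p = 0.695), with -0.17, 0.26 and 0.25 on the female PBS arrays and 0.57, -0.04, 0.40 and 0.92 on the female meth arrays.

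Female pairs on a slide did not share a direction. In pair 1 the median member was 0.20 higher after meth and 29 of 35 were above 0. In pair 2 it was -0.44 with none above 0, and in pair 3 -0.27 with 2 above 0. Slide 4 held meth replicates 3 and 4 beside PBS replicate 3, so the number alone set pair 3. The members' median deviation was 0.26 on PBS replicate 3, -0.06 on meth replicate 3 and 0.31 on meth replicate 4. The 2 meth arrays on which the members were high (replicates 1 and 4) also had the highest leukocyte markers, whose median deviation was 0.38 and 0.44 there and -0.21 and -0.06 on replicates 2 and 3. In females 6 of 9 leukocyte markers and 4 of 9 T and NK cell markers had a fitted difference above 0, against 0 of 5 B cell markers (median -0.44) and 0 of 4 neutrophil markers (median -0.46), and none was called. The summed log2 signal of the B cell markers ran from -0.35 to 0.28 on female meth arrays and from 0.31 to 0.46 on female PBS arrays. Their part in the members' spread was not tested.

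**Figure D3:**
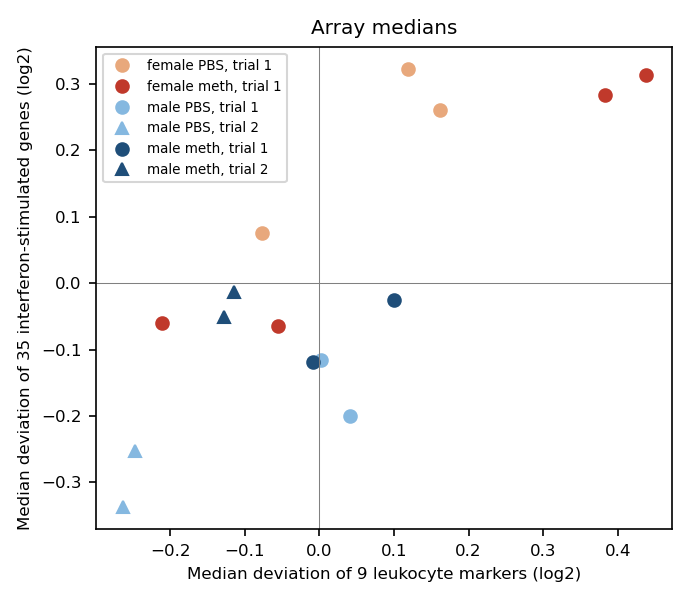
Median deviation of 35 interferon-stimulated genes on each array (vertical axis, log2 from each gene's mean) against that of 9 leukocyte markers (horizontal axis, log2); circles are trial 1 by title, triangles trial 2, coloured by group. Female meth replicates 1 and 4 lie at the upper right (0.28 and 0.31) and the 2 trial 2 male PBS arrays at the lower left (-0.34 and -0.25).

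The difference between the male and the female response was tested directly as an interaction. No member passed, where 0.155% of all genes did. The male response exceeded the female response for 34 of 35 members, against 42.2% of all genes, with a median of 0.27 against -0.04, and 8 members were higher in males at an unadjusted p under 0.05 (3.58% of all genes) and none lower (4.53%). These were Ifit2 (0.52 ± 0.16, adjusted p = 0.420), Irf7 (0.57 ± 0.20), Irf8 (0.39 ± 0.15), Oasl2 (0.44 ± 0.17), Dhx58 (0.53 ± 0.21), Tap1 (0.59 ± 0.23), Zbp1 (0.77 ± 0.32) and Ifih1 (0.28 ± 0.12). Bst2, a protein that tethers budding virus, was the exception at -0.05. All 5 B cell markers were also above 0 in this comparison (median 0.60, none called), as were 7 of 9 T and NK cell and 5 of 9 leukocyte markers but 0 of 4 neutrophil markers. The part of these cells in the difference was not tested. Averaged over the sexes, 22 of 35 members were above 0 (51.8% of all genes), the median was 0.03 and none was called, where 2.23% of genes were. At an unadjusted p under 0.05 Ifit1, Ifit2 and Ifit3 were higher (7.58% of all genes) and none was lower (5.13%). Isg20 had the largest averaged difference (0.36 ± 0.17, adjusted p = 0.357), followed by Ifit3 (0.31 ± 0.12) and Ifit1 (0.29 ± 0.10).

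Male PBS hearts differed from female PBS hearts in 1 member. Ifit2 was lower in males, the only call of 35, where 0.548% of all genes were called and 0.316% were called lower. Its signal was -0.83, -0.82 and -0.73 on the female PBS arrays, all above the male PBS values given earlier, and the log2 fold change was -0.74 ± 0.13, or 1.68-fold lower (adjusted p = 0.0296, exact permutation p = 0.0286). The permutation test and the counts of members whose arrays did not overlap used no term for trial or slide. The other probe of Ifit2 gave -0.77 (adjusted p = 0.05002). With slide as a block the value was -0.67 (adjusted p = 0.0276), and on slides 1 and 2 alone, which held both sexes, -0.65 (adjusted p = 0.152). Leaving out any of the 7 PBS arrays ended the call, with values from -0.71 to -0.81 and adjusted p from 0.0537 to 0.104, and without female PBS replicate 1 Oas2 and Ifi44 were called instead. The female response, the male response and this comparison share PBS arrays, so their values are not independent of each other.

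The other members lay mostly on the same side. The fitted difference was below 0 for 33 of 35, against 47.7% of all genes, with a median of -0.44 against 0.01. Every male PBS array was below every female PBS array for 25 of 35 members, against 8% of all genes, and above for none (8.61%). Because most members varied together across arrays, these counts do not come from independent genes. At an unadjusted p under 0.05, 22 members were lower and none higher, where 6.9% and 8.43% of all genes were. Within trial 1 the median was -0.40, with 32 members below 0 and none called (0.429% of all genes). Scaling by the array median raised the difference of every gene by 0.12, to a median of 0.13 over all genes and -0.32 over the members.

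By role, the antiviral effectors had a median of -0.58, with Ifit1 at -0.78 ± 0.17 (adjusted p = 0.0706), Ifit3 at -0.67 ± 0.20, Oas2 at -0.60 ± 0.17, Oas1a at -0.60 ± 0.19 and Oasl2 at -0.60 ± 0.14 (adjusted p = 0.0838). Ifit1 read -1.29, -0.9999 and -1.03 on the female PBS arrays, so its lowest female value of -1.29 was above its highest male value of -1.78. The largest difference was that of Ifi44, at -0.84 ± 0.17 (1.79-fold lower, adjusted p = 0.0575), which read -1.52, -1.36, -1.84 and -1.74 on the male PBS arrays. Its female values, given above, were all higher. Isg15 and Usp18 stood at -0.52 and -0.60, and the sensors Zbp1, Ddx58, Ifih1 and Dhx58 at -0.63, -0.57, -0.41 and -0.31.

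The other members included several close to 0. The immunity-related GTPases Igtp (-0.15) and Iigp1 (0.09) and the factor Irf1 (-0.04) had overlapping arrays. Irgm1 (-0.18) was lower on every male array by a narrow gap, and Gbp2 (-0.65) and Gbp3 (-0.42) were further from 0. The Gbp2 value includes the low male PBS array of trial 2, and within trial 1 Gbp2 was at -0.47. Irf9 (-0.54), Irf7 (-0.45), Irf8 (-0.33) and Stat2 (-0.19) were below 0, as were Psmb8 (-0.43), Psmb9 (-0.29), Tap1 (-0.45), Xaf1 (-0.44), Ifi35 (-0.26) and Rtp4 (-0.26). Eif2ak2, the kinase that halts translation, was at 0.06 and Isg20 at -0.01. Oas3 was at -0.57, with male values not well above background. Rsad2, which encodes viperin, was at -0.09 by its brightest probe and at -0.35 and -0.45 by its 2 dimmer ones, so its probes disagreed. Ifih1 was at -0.87 by its dimmer probe (adjusted p = 0.0767). The 15 members with the ISRE letters had a median of -0.42 with 9 of 15 not overlapping, and the 14 with a listed window but without those letters a median of -0.44 with 12 of 14.

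**Figure D4:**
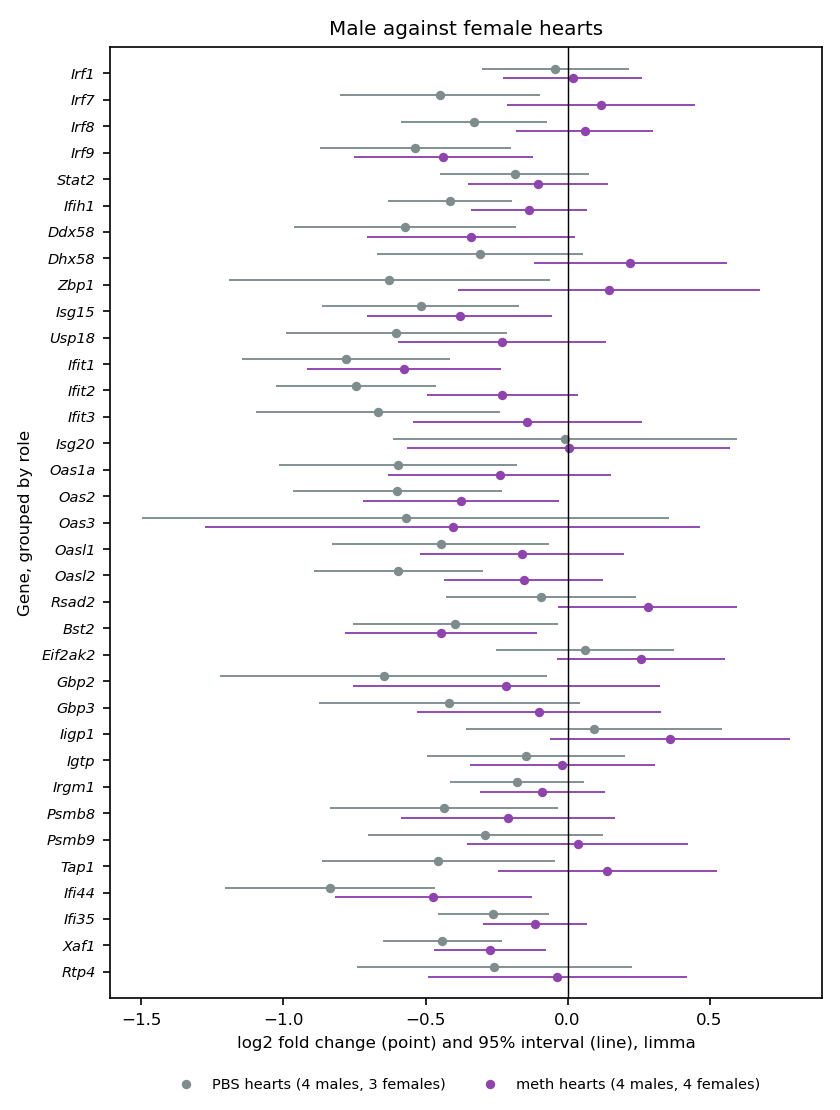
Log2 fold change of male over female hearts for 35 interferon-stimulated genes, in PBS hearts (grey, 4 against 3) and meth hearts (purple, 4 against 4); points are limma estimates and lines their 95% intervals. In PBS hearts 33 of 35 points lie below 0, with Ifi44, Ifit1 and Ifit2 furthest, and in meth hearts 24 of 35.

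In meth hearts the sexes lay closer. No member was called, where 2.8% of all genes were, the median was -0.14 against -0.01, and 24 of 35 members were below 0 (53% of all genes). Of the 35 members, 7 were lower on every male than on every female meth array, against 7.56% of all genes, and these were Ifit1, Irf9, Xaf1, Ifi44, Bst2, Isg15 and Oas2. The same 7 were lower at an unadjusted p under 0.05 (10.5% of all genes) and none was higher (8.06%). Ifit1 had the largest of these differences, at -0.58 ± 0.16 (adjusted p = 0.0787), and passed without female meth replicate 2 (adjusted p = 0.0441). It read -0.69, -1.19, -1.18 and -0.63 on the female meth arrays, the lowest of which, -1.19, was next to the highest male meth value of -1.21. Bst2 was at -0.45 in meth and -0.40 in PBS hearts, and Irf9 at -0.44 and -0.54. Rsad2 was higher on every male meth array by its brightest probe, the only member so (4.23% of all genes). The gap was narrow, with the lowest male and the highest female meth array both at 0.61. Rsad2 stood at 0.28 ± 0.14 by that probe and at 0.18 and -0.03 by the other 2. Ifit2 stood at -0.23 ± 0.12 and its arrays overlapped.

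**Figure D5:**
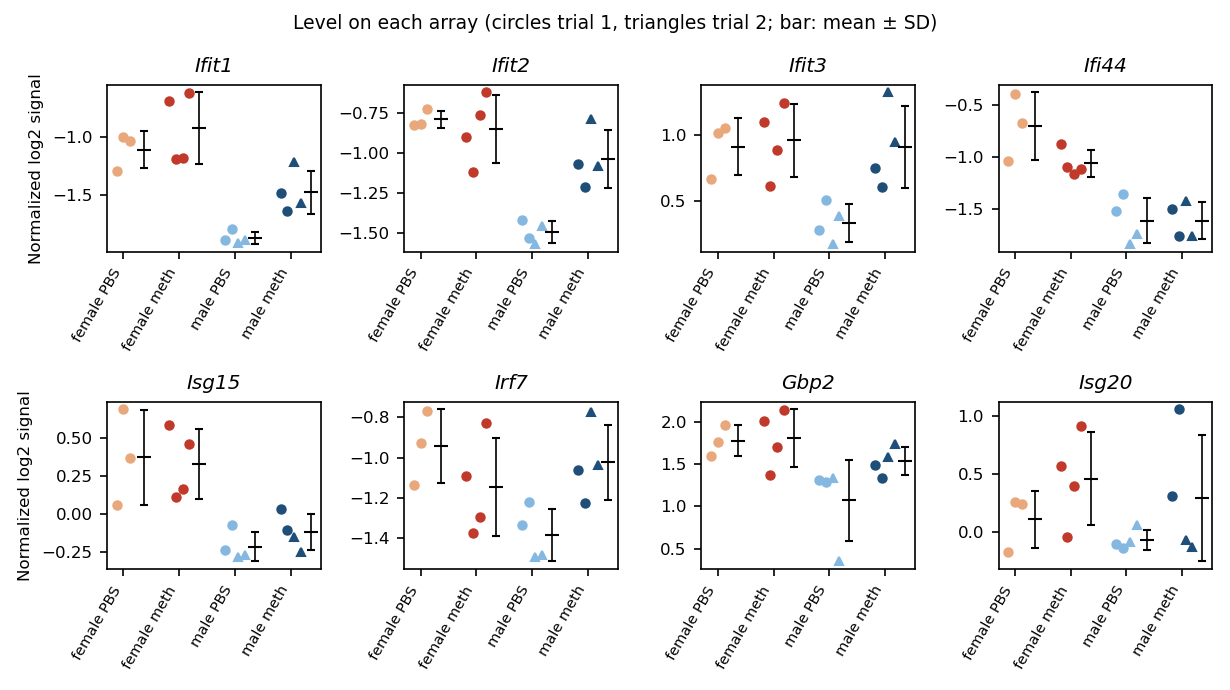
Normalized log2 signal of 8 interferon-stimulated genes on each array of the 4 groups (circles trial 1, triangles trial 2 by title; black bars mean ± SD). The 4 male PBS points of Ifit1, Ifit2 and Ifit3 lie below all male meth and all female points, and Gbp2 has 1 male PBS array at 0.35 against 1.29 to 1.33 for the others.

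Markers of lymphocytes did not share a direction between the sexes. All 9 T and NK cell markers had a fitted difference below 0 in male PBS hearts (median -0.62, none called), and their summed log2 signal ran from -1.13 to -0.39 on male PBS arrays and from 0.01 to 0.19 on female PBS arrays. In meth hearts 6 of 9 were below 0. Of the B cell markers 4 of 5 were above 0 in male PBS hearts (median 0.20, none called) and 5 of 5 in male meth hearts (median 0.81, with Cd22 called higher), and all 4 neutrophil markers were above 0 in male PBS hearts (median 0.28). Of the leukocyte markers 7 of 9 were below 0 in PBS hearts (median -0.11), and of the endothelial markers 4 of 5. The 3 dendritic cell markers tested were below 0, and Siglech, which marks the plasmacytoid dendritic cells known for interferon release, was above background on no array. The part of these cells in the members' difference was not tested.

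The rest of the pathway was read from lists of gene names. Of the ligand and receptor genes, 10 of 24 were tested, mostly receptors, and none was called in the meth comparisons of either sex. The interferon gamma receptor chain Ifngr2 and Il10rb, which serves interferon lambda, were the brightest, and their meth differences were -0.12 and 0.01 in males and 0.07 and 0.09 in females. Ifnlr1, the other interferon lambda chain, was 0.70 ± 0.15 higher in male than in female meth hearts (adjusted p = 0.0311), where 2.8% of all genes were called. Among the kinases and STATs, Jak1 and Stat3 were not called in any comparison and stood at -0.10 and -0.01 in males.

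None of the 16 upstream sensors and adaptors was called in any comparison, among them Irf3 (-0.05 in males, 0.02 in females) and Mavs (-0.11 in males). Of 7 genes that restrain the pathway, Socs3 was lower in male than in female meth hearts (-0.59 ± 0.13, adjusted p = 0.0332), where 2.8% of all genes were called. The others were not called in any comparison. Socs1, an inhibitor of Jak kinases, was -0.54 ± 0.13 averaged over the sexes (adjusted p = 0.0504), and Ptpn2 and Usp25 were at -0.23 and -0.11 in males.

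Of 68 further interferon targets 58 were tested. In males 47 of 58 were above 0 (median 0.09), against 44.9% of all genes. In females 42 were below 0 (median -0.07), against 41.5% of all genes. Between PBS hearts 51 were below 0 (median -0.26), against 47.7% of all genes. Cmpk2, a mitochondrial nucleotide kinase, was the only target called between the sexes, and it was lower in males. In PBS hearts it stood at -0.66 ± 0.12 (adjusted p = 0.0320), where 0.548% of all genes were called. In meth hearts it stood at -0.48 ± 0.11 (adjusted p = 0.0441), where 2.8% of all genes were called. Cmpk2 had no meth difference beyond its error in males (0.02 ± 0.10). Averaged over the sexes, 2 of 58 targets were called, against 2.23% of all genes. These were Ifi205 (0.56 ± 0.13, adjusted p = 0.0472) and the lysosomal reductase Ifi30 (0.34 ± 0.08, adjusted p = 0.0487), both higher after meth. The antigen presentation genes B2m and H2-K1, the brightest of the list, stood at 0.15 and 0.27 in males, -0.01 and -0.15 in females and -0.34 and -0.26 between PBS hearts.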

How the data were processed

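RNA of 15 hearts was labelled with Cy3 and hybridised to 1-colour Agilent mouse arrays, 1 array per heart. The authors deposited scanner files whose intensity values are Agilent's processed signals, background-subtracted per the file headers (Feature Extraction 10.5.1.1; the submitters' processing notes name version 9.1), and a series table of log2 values, which the authors had shifted so that the 75th percentile of every array was about 8.39; it held the same signals up to a constant per array. Here log2 of the processed intensity was taken minus each array's 75th percentile over non-control probes, outlier spots were dropped, spots of a probe averaged, and a probe was kept if at least 3 of 15 arrays called it well above background (28367 of 41174). Accessions were matched to RefSeq symbols (GRCm38.p6); 26918 probes matched 1 symbol and 14256 none. A gene was read by its tested probe with the highest mean signal.

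A single limma fit (3.58.1, R 4.3.3) held 4 groups and trial (as the titles give it) over 15 arrays, with Benjamini-Hochberg adjustment over all probes and a threshold of 0.05; a fold change is on the log2 scale. Exact two-sided permutation tests cannot go below 0.0286. The number of arrays limits precision. p-values measure the spread between hearts of separate mice. The fit was tested on simulated data with planted changes of 2 (log2) and independent arrays. These changes exceeded every member difference, so the simulation did not cover differences of the members' size. Marker and pathway lists are referred to by name in the text, and only the cardiomyocyte list is given gene by gene. Per-array values were given for members called, members whose meth and PBS arrays did not overlap in a sex, and the 5 largest changes per sex. Pathway genes were named where called or among the 2 brightest of a list. Further members and genes were named after their values were seen. The members and lists were chosen with earlier results of these data known. Arrays of the same sex, trial and number shared a slide. Their deviations from the group means correlated in all 7 pairs (r from 0.257 to 0.664 over 23820 probes). Arrays of different number were not compared, and differences between trials and slides were not removed first. These correlations therefore cannot show whether the numbers pair the arrays. Alternatives covered background correction, scaling, filters, probe choice, trial, slide, replicate block, test and each array left out.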

Additional observations from a re-analysis of the deposited data

Results flagged for a closer look

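Values of the 35 members were screened for a single array far from the other 3 of its group of 4 (108 such groups, the array medians included; about 1 in 20 is flagged by chance). The screen flagged 3, no more than that rate would give. Gbp2 was 0.35 on male PBS trial 2 replicate 2, against 1.29 to 1.33 on the other male PBS arrays, a gap of 0.959 of the range. Oas2 was -0.49 on male meth trial 1 replicate 2, against -0.26 to -0.22 on the others. Ifih1 was -0.54 on male PBS trial 2 replicate 1, against -0.47 to -0.46, so that its whole range was small. The 3 female PBS arrays were too few for this screen.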

How the results depend on the processing

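Every comparison was repeated under 31 to 36 alternatives, for the counts and medians and for the members with the largest differences. Their signs held, except that the median averaged over the sexes (0.03) ran from -0.02 to 0.06. Of the female, interaction and averaged comparisons, none had a member called under any of them. The lone call between PBS hearts (1 member) went to 0 with normexp background correction, with no filter on dim probes, on trial 1 arrays alone, on slides 1 and 2 alone and without slide 4 (these 2 chosen after seeing the data). It went to 2 with probes above background on all arrays (Ifit2, Ifi44) or with the mean of a gene's probes (Ifih1, Ifit2), to 3 without the trial term (Ifit2, Ifi44, Xaf1) or with an intensity trend and robust prior (Ifit1, Ifit2, Ifi44), and to 4 with trial as the other label gives it (those plus Xaf1). Leaving out each array in turn gave 0 to 2. In males the count of 0 became 1 (Ifit2) with trial as the other label gives it or slide as a block, and 0 to 1 with arrays left out. Between meth hearts it became 5 with trial as the other label gives it (Irf9, Ifit1, Bst2, Ifi44, Xaf1), and 0 to 1 with arrays left out. The male median of 0.17 was 0.067 on trial 1 arrays, on trial 1 males and on slides 1 and 2 alone, and 0.106 without male PBS trial 2 replicate 1 or with normexp. The cause of these shifts was not tested. With the replicate number as a block, Ifit2 in males was 0.46 (adjusted p = 0.0978) and, as a random block, -0.77 between PBS hearts (adjusted p = 0.0456); the block changed no call. The number of arrays limits precision. Without the dim-probe filter more probes were tested, and Ifit2 between PBS hearts had an adjusted p of 0.0683.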
